A study of Rattus norvegicus with 8 samples.

Results

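The genes described here encode the chaperones and folding enzymes of the endoplasmic reticulum (ER) and factors of the unfolded protein response. Of 10 genes chosen by name (Hspa5, Hsp90b1, Herpud1, Calr, Canx, Dnajb9, Sdf2l1, Xbp1, Pdia4 and Pdia6), 9 had a probe on the array that could be named through its RefSeq accession, with 13 probes among 41012. No probe was matched to Xbp1, which was not analysed here. Each gene with more than 1 probe was represented by its brightest, which gave 9 of 20935 features tested (10240 of these features had a gene symbol).

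The RNA came from whole right kidneys of female F344/NSlc rats, an inbred strain, that were 10 weeks old. In 1 group the other kidney had been removed (unilateral nephrectomy, 4 arrays), and in the other group the rats had a sham operation (4 arrays). The design text places the collection 2 days after surgery, whereas the sample names give 2 days for the nephrectomized group and 1 day for the sham group, so that surgery and day cannot be told apart if the sample names hold. The study's title states its question as the compensatory response of the kidney that remains. The labels do not say whether each array holds the RNA of 1 rat, so p-values here reflect only how these samples vary, which may be technical.

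Secreted and membrane proteins fold in the lumen of the ER, where Hspa5 (BiP) binds unfolded chains, lectins such as calnexin and calreticulin hold glycoproteins, and protein disulfide isomerases form and shuffle disulfide bonds. When unfolded chains build up, the sensors Ern1 (IRE1), Eif2ak3 (PERK) and Atf6 start programmes that slow protein synthesis and raise the transcription of these chaperones and of genes that send misfolded proteins to the proteasome. Kidney tubule cells carry a heavy load of membrane transporters made through this route.

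The promoters were searched for exact matches to known sequences through which that response acts. The ER stress response element, searched as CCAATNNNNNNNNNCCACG on both strands, was present in the 250 bases before the start of 22 of 33469 RefSeq promoters (0.0657%, build GRCr8). It was present in 5 of the 9 members with a promoter entry: Hspa5, Hsp90b1, Canx, Xbp1 and Calr. A second form, ERSE-II (ATTGGNCCACG), was present in 14 promoters (0.0418%) and in 1 member, Herpud1. Neither the UPRE core TGACGTGG (0.52% of promoters) nor the ATF4 composite site TGATGNAAT (0.944%) was present in a member's window. The elements are shown as they read on the gene's strand, with the fixed letters in capitals, so that the shared ends and the differing middles can be compared. Where the element lies on the opposite strand it starts with CGTGG.
Hspa5, chr3:38452973-38452991: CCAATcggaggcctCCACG
Hsp90b1, chr7:23012451-23012469: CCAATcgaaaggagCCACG
Hsp90b1, chr7:23012347-23012365: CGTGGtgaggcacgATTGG
Canx, chr10:35158069-35158087: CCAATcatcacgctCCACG
Xbp1, chr14:84604558-84604576: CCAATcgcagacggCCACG
Calr, chr19:40213135-40213153: CGTGGtcgaccctgATTGG
Herpud1, chr19:10614821-10614831: ATTGGgCCACG

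The element of Hspa5 lay 43 to 25 bases before the gene's start, and that of Xbp1 lay 65 to 47 bases before it. Hsp90b1 had elements at 176 to 158 and at 72 to 54 bases before its start, the first on the gene's strand and the second on the other. Those of Canx (230 to 212 bases) and Calr (232 to 214 bases) lay near the far end of the window, and that of Herpud1 lay at 124 to 114 bases. Promoters of Dnajb9, Sdf2l1 and Pdia4 held none of the 4 motifs in these windows. A match is a description of the letters and not a measured binding site. Only exact letters within 250 bases were searched, so a promoter without a match may still hold a variant or a more distant element. The 250 bases of the promoters of Hspa5, whose element lies closest to its start, and of Herpud1, the member with the largest difference between the groups, are given in full, 5′ to 3′ on the gene's strand.
Hspa5, chr3:38452766-38453015, plus strand: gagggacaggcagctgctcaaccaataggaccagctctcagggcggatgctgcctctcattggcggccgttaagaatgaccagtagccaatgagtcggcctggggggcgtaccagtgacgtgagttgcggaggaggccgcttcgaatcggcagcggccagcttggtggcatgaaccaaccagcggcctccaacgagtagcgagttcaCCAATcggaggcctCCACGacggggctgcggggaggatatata
Herpud1, chr19:10614708-10614957, minus strand: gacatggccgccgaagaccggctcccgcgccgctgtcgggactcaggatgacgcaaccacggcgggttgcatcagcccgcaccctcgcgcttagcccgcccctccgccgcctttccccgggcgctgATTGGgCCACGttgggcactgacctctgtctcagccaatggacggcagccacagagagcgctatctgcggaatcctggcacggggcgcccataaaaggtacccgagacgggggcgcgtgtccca

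Levels are given as log2 of the processed signal relative to the array's own 75th percentile, so that 0 is the 75th percentile. They compare arrays for 1 probe and not probes with each other. Between 59.5% and 66.1% of probes were well above background on each array, and no probe was saturated. The 8 arrays lay on 2 slides, replicates 1 and 2 of each group on slide 1 and replicates 3 and 4 on slide 2, with sham arrays at positions 1 and 2 of each slide and nephrectomized arrays at positions 3 and 4. Position and group therefore cannot be told apart. All 16 kidney markers (podocyte, tubule and endothelial genes) were well above background on all 8 arrays. All 13 probes of the members were well above background on all 8 arrays.

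None of the 9 members passed the test between the groups (limma, adjusted p under 0.05 over all features), whereas 217 of the 20935 features did (1.04%), 157 of them higher and 60 lower after nephrectomy. The unadjusted p was under 0.05 for 3 members, Herpud1, Dnajb9 and Pdia4, and in all 3 the nephrectomized mean was the lower (6.30% of all features were lower at this level). The difference, nephrectomized minus sham, was negative for 8 of the 9 members against 47.5% of all features. Its median was -0.12 on the log2 scale against 0.01 over all features. In whole kidney, fewer cells of a type and less RNA per cell cannot be told apart.

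Herpud1 is a membrane protein of the machinery that withdraws misfolded proteins from the ER for degradation. Its sham levels were 5.76, 5.58, 5.21 and 5.41 (replicates 1 to 4), and its nephrectomized levels were 5.03, 5.20, 5.19 and 4.88. Every nephrectomized array lay below every sham array, but the lowest sham array stood only just above the highest nephrectomized array. The group mean was 5.49 ± 0.24 (SD, n = 4) after sham surgery and 5.08 ± 0.15 (SD, n = 4) after nephrectomy. The difference was -0.41 ± 0.13 (SE; 95% confidence interval -0.71 to -0.12), or 0.750 times the sham level, with a limma adjusted p of 0.159. Herpud1 was the only member whose groups did not overlap, which held in this direction for 4.07% of all features. Its second probe gave -0.40, with overlapping groups, and correlated with the first at r = 0.94 over the 8 arrays.

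Dnajb9 (ERdj4) is an ER co-chaperone that delivers clients to Hspa5. Its levels were 1.51, 1.31, 1.00 and 1.12 in the sham arrays and 0.86, 0.90, 1.08 and 0.85 in the nephrectomized arrays. All but 1 of the nephrectomized arrays lay below the lowest sham array, and the exception was replicate 3. The difference was -0.31 ± 0.12 (SE; 95% confidence interval -0.58 to -0.05), or 0.806 times the sham level, with a limma adjusted p of 0.246. The second probe of Dnajb9 gave -0.30 and correlated with the first at r = 0.91.

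Pdia4 (ERp72) is a disulfide isomerase of the ER lumen. Its levels were 1.00, 1.28, 1.07 and 0.82 in the sham arrays and 0.57, 0.87, 0.78 and 0.73 in the nephrectomized arrays. The groups overlapped only through sham replicate 4 and nephrectomized replicate 2. The difference was -0.30 ± 0.11 (SE), or 0.810 times the sham level, with a limma adjusted p of 0.214.

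**Figure D1:**
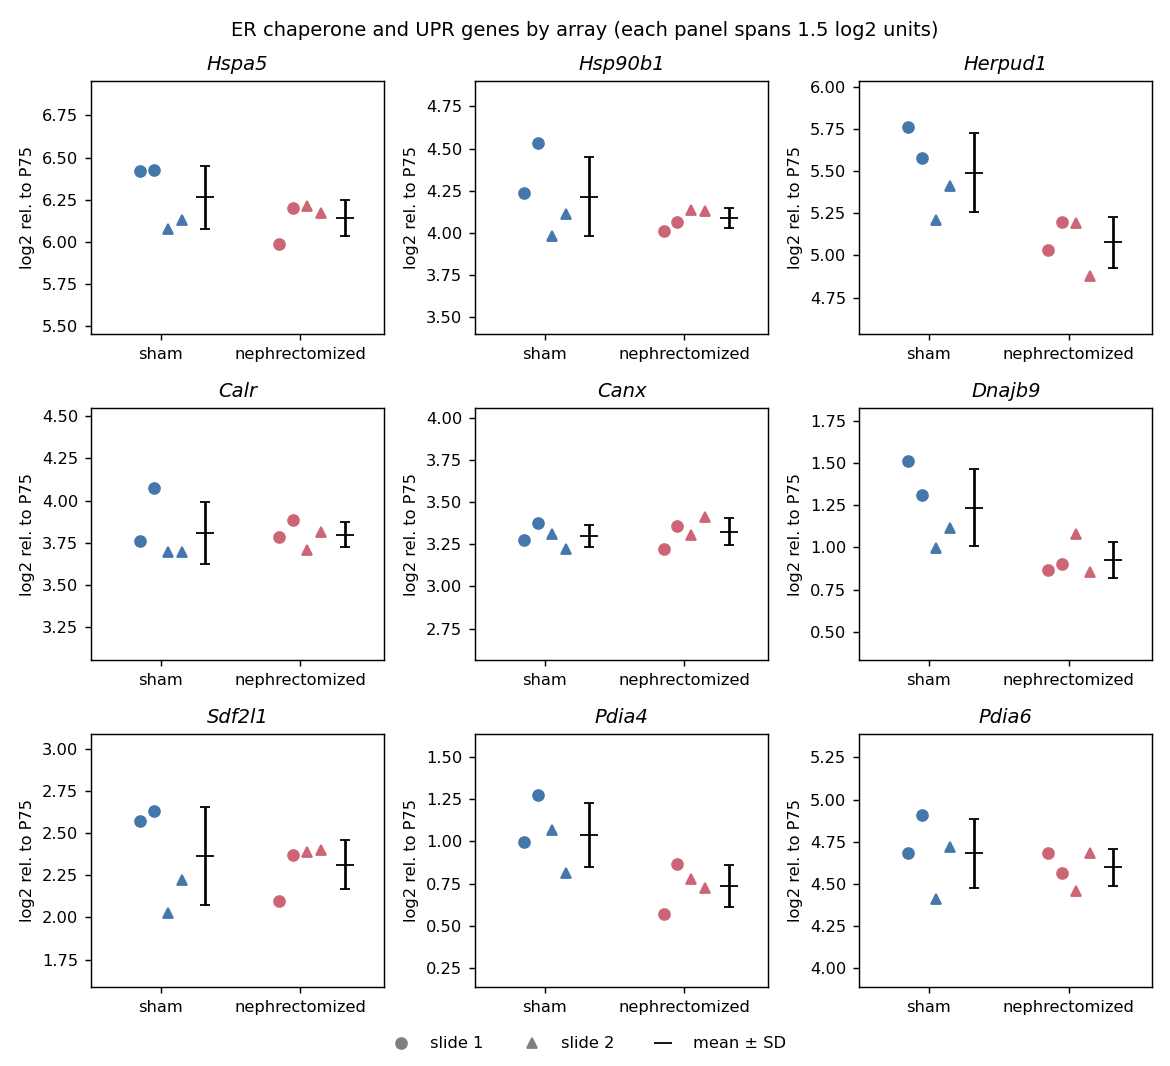
Levels of the 9 measured members in each array, as log2 of signal over the 75th percentile of each array, by group, with circles for slide 1, triangles for slide 2 and the mean ± SD (n = 4) beside them; each panel spans the same number of log2 units. Only for Herpud1 do the nephrectomized arrays all lie below the sham arrays, and in most panels the highest sham points are those of slide 1.

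The main chaperones of the lumen had smaller differences. Hspa5 had levels of 6.42, 6.43, 6.08 and 6.13 in the sham arrays and 5.99, 6.20, 6.21 and 6.17 in the nephrectomized arrays. Both slide 1 sham arrays stood above all nephrectomized arrays, while both slide 2 sham arrays lay below both nephrectomized arrays of that slide. The difference was -0.12 ± 0.10 (SE; 95% confidence interval -0.35 to 0.11; limma adjusted p = 0.609).

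Hsp90b1 (GRP94), the Hsp90 of the ER, had levels of 4.24, 4.53, 3.98 and 4.11 in the sham arrays. The nephrectomized arrays were closer together, at 4.01, 4.07, 4.14 and 4.13, inside the sham range. The difference was -0.13 ± 0.11 (SE; limma adjusted p = 0.625). The second probe of Hsp90b1 gave -0.15, yet it followed the first probe only loosely (r = 0.57, Spearman's rho 0.19 over the 8 arrays).

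Sdf2l1, a partner of Hspa5 and its co-chaperones in the lumen, had sham levels of 2.57, 2.63, 2.02 and 2.22 and nephrectomized levels of 2.10, 2.37, 2.38 and 2.40. The sham arrays held both the highest and the lowest values. The difference was -0.05 ± 0.14 (SE; limma adjusted p = 0.904).

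The lectin chaperones had nearly equal group means. Calr, the soluble lectin calreticulin, had levels of 3.76, 4.08, 3.69 and 3.69 in the sham arrays and 3.78, 3.88, 3.71 and 3.82 in the nephrectomized arrays, a difference of -0.01 ± 0.09 (SE; limma adjusted p = 0.979). Sham replicate 2 stood above all the other arrays. Canx, its membrane-bound relative calnexin, had levels of 3.28, 3.38, 3.31 and 3.22 in the sham arrays and 3.22, 3.36, 3.30 and 3.41 in the nephrectomized arrays. Its groups overlapped almost wholly, with a difference of 0.02 ± 0.06 (SE; limma adjusted p = 0.892) at the first probe and 0.05 at the second (r = 0.78 between the probes). Canx was the only member with a difference above 0, and with quantile normalization its difference was -0.0018.

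Pdia6, another disulfide isomerase, had levels of 4.69, 4.91, 4.41 and 4.72 in the sham arrays and 4.68, 4.56, 4.46 and 4.69 in the nephrectomized arrays. Its nephrectomized values lay inside the sham range. The difference was -0.08 ± 0.11 (SE; limma adjusted p = 0.762).

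The slides gave different pictures of the same genes. On slide 1 the difference was negative for 9 of 9 members (47.0% of all features), with a median of -0.34, and on slide 2 for 3 of 9 (48.1% of all features), with a median of 0.07. Over all features the median was 0.01 on each slide. At the probes used, both nephrectomized arrays lay below both sham arrays for 7 of 9 members on slide 1 (18.3% of all features). On slide 2 this held for 2 of 9 (18.0%), namely Herpud1 and Pdia4, but at the second probe of Herpud1 the groups overlapped there.

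Herpud1 had a difference of -0.55 on slide 1 and -0.28 on slide 2, and Pdia4 of -0.42 and -0.19. The second probe of Herpud1 gave -0.69 on slide 1 and -0.12 on slide 2. For Dnajb9 the slides gave -0.53 and -0.09. Sdf2l1 went from -0.37 on slide 1 to 0.27 on slide 2, Hspa5 from -0.33 to 0.09 and Hsp90b1 from -0.34 to 0.09. At the probes used, these 3 genes thus had opposite signs on the slides, whereas the 3 with the largest overall differences had the same sign on both. With normexp background correction, an alternative, Hspa5 did not lie above 0 on slide 2. The second probe of Hsp90b1 gave -0.16 on slide 1 and -0.15 on slide 2, without a change of sign. Calr (-0.08 and 0.07), Canx (-0.04 and 0.09) and Pdia6 (-0.17 and 0.01) also had opposite signs, with smaller gaps between the slides.

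The difference between the slides in the effect of surgery was tested as an interaction. It was above 0 for 9 of 9 members (49.8% of all features), but limma called 0 of the 9 and 0 of all features, every adjusted p being 1.00 for the members. At an unadjusted p under 0.05 there were 4 of 9 members (602 features, 2.88%). These were Sdf2l1 (0.64), Dnajb9 (0.44), Hsp90b1 (0.43) and Hspa5 (0.42). With the mean of a gene's probes the slide difference was 0.22 for Hsp90b1 and 0.47 for Dnajb9. For Herpud1 it was 0.43, against 0.28 at the probe used.

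**Figure D2:**
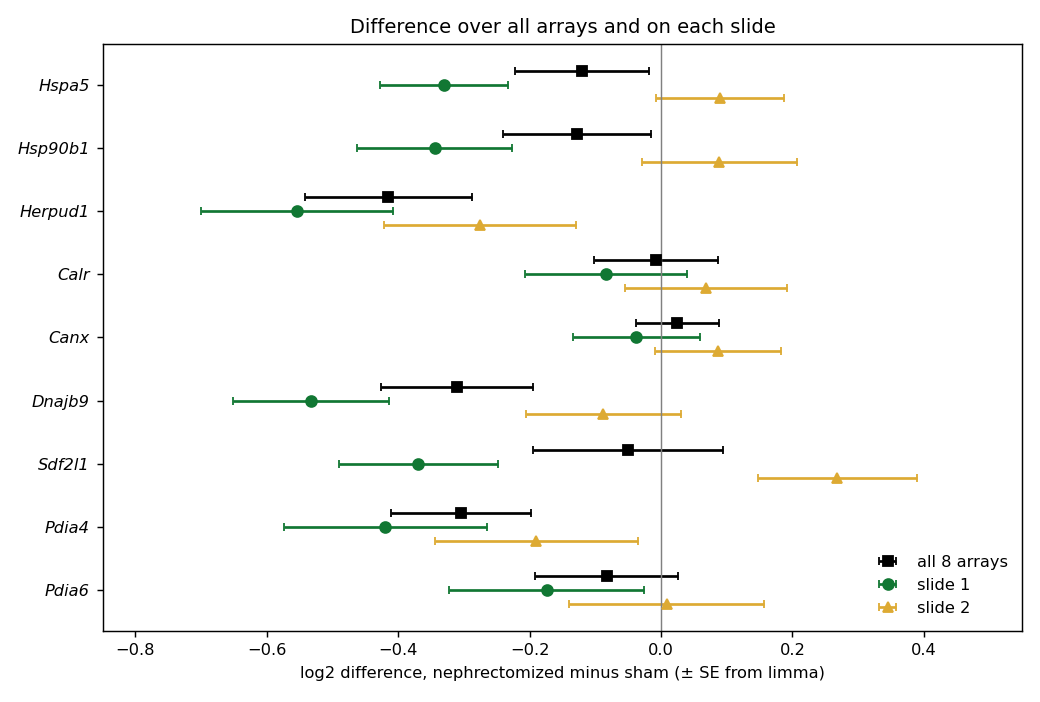
Difference between the groups for each member, nephrectomized minus sham in log2 units, with its SE, over all 8 arrays and within each slide (2 arrays a group). The slide 1 values lie below 0 for 9 of 9 members and below the slide 2 values throughout, and the slide 2 values of Herpud1, Pdia4 and Dnajb9 are the only ones below 0.

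The arrays of each group were also compared between the slides, a contrast chosen after these values were seen. Between the sham arrays, slide 2 minus slide 1 was negative for 9 of 9 members (51.9% of all features), with a median of -0.32. Both slide 2 sham arrays lay below both slide 1 sham arrays for 6 of 9 members (13.6% of all features). No member and 0 features passed the test here (limma adjusted p = 0.999 for the members). Between the nephrectomized arrays the same contrast was negative for 3 of 9 members (50.6% of all features), with a median of 0.06. The SD of the sham group exceeded that of the nephrectomized group for 8 of 9 members (56.4% of all features), Canx being the exception. The slide and the samples on it cannot be told apart, because each sample was hybridised to 1 slide.

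Averaged over the 9 members, each centred on its own mean, the sham arrays stood at 0.17, 0.27, -0.10 and -0.03 and the nephrectomized arrays at -0.16, -0.03, -0.05 and -0.07. The 2 sham arrays of slide 1 were thus above all other arrays, and those of slide 2 stood in or beside the nephrectomized range. Without sham replicate 2 the members' median difference was -0.02 in place of -0.12, and without sham replicate 3 it was -0.18.

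The members varied together across the arrays. Over the 8 arrays the 36 pairs of members had a median Pearson r of 0.58, with 34 of them positive, and after the group means were subtracted the median was 0.59, with 35 positive. All arrays share the scaling to the 75th percentile, and the median r of all features with the members' mean was -0.02. The closest pair was Herpud1 with Dnajb9 (r = 0.95), followed by Hspa5 with Sdf2l1 (r = 0.94), and Hspa5 with Hsp90b1 reached 0.85. The least alike were Herpud1 and Canx (r = -0.20). With the mean of the other members, Hspa5 (0.94) and Hsp90b1 (0.90) correlated most and Canx (0.25) least.

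Among the features most like the members' mean over the 8 arrays, outside the members, were Tgfb3 (r = 0.98), a growth factor, Creld2 (0.95), a secreted factor induced by ER stress, Nup50 (0.95), a nuclear pore protein, and Cish (0.93), an inhibitor of cytokine signalling. After the group means were subtracted they were Tgfb1i1 and Ccdc149 (both 0.99), Tgfb3 (0.97), Npdc1 (0.96) and Cish (0.95). None of these passed the test between the groups. Creld2 had sham levels of 1.97, 1.91, 1.46 and 1.62 and nephrectomized levels of 1.42, 1.52, 1.54 and 1.46. Its slide 1 sham arrays stood above all the others, as for Hspa5, and its difference was -0.26 ± 0.11 (SE; limma adjusted p = 0.319). The promoter of Creld2 held the ER stress response element on the opposite strand.
Creld2, chr7:121789239-121789257: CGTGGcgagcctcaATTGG

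Around the members, 8 related lists of ER and stress genes held 134 genes, 118 of them on the array and 113 tested. None passed the test (limma adjusted p under 0.05), and 9 had an unadjusted p under 0.05, 3 lower and 6 higher (over all features 16.0% in either direction). Of the 113, 62 differences were positive and 51 negative, with a median of 0.01, equal to that of all features. Their slide medians were -0.05 and 0.07.

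Among the stress sensors and their transcription factors, 5 of 9 differences were negative (median -0.0042). The brightest were Atf4, the factor translated when PERK is active, at 0.01 ± 0.07 (SE), and Creb3l1, an ER-anchored factor, at 0.23 ± 0.25. Among the targets of PERK, ATF4 and CHOP, 13 of 16 were positive over all arrays (median 0.06), but 6 of 16 on slide 1 (median -0.06) and 13 of 16 on slide 2 (median 0.15). The brightest were Phgdh of serine synthesis at 0.11 ± 0.09 (SE) and the amino acid transporter subunit Slc3a2 at 0.09 ± 0.10.

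Among the partners of Hspa5, 5 of 9 were negative (median -0.01), with Sdf2, a relative of Sdf2l1, at -0.07 ± 0.05 and the reductase co-chaperone Dnajc10 at 0.11 ± 0.05. In oxidative folding 8 of 16 were negative (median 0.01), with the disulfide isomerase P4hb at -0.08 ± 0.07 and the prolyl isomerase Ppib at 0.06 ± 0.07. Of the glycoprotein control genes 4 of 5 were positive (median 0.03), with the glucosidase Mogs at 0.02 ± 0.07 and the cargo receptor Lman1 at 0.08 ± 0.08. Over all arrays these folding lists lay within a few hundredths of a log2 unit of the median of all features. On slide 2 their medians were higher, at 0.08, 0.10 and 0.11, against 0.01 for all features. The glycoprotein median was -0.03 without sham replicate 3 and 0.12 without nephrectomized replicate 1.

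In ER-associated degradation, the pathway of Herpud1, 11 of 17 were negative (median -0.04), with the ATPase Vcp at 0.03 ± 0.07 and the lectin Erlec1 at -0.04 ± 0.09. Of the genes for entry into the ER and for glycan transfer 16 of 25 were positive (median 0.03, and -0.01 with quantile normalization), with Rpn1 at -0.01 ± 0.06 and Ssr4 at 0.06 ± 0.05. The cytosolic heat shock proteins, which serve the other folding compartment, had 9 of 16 negative (median -0.04), with Hsp90ab1 at -0.04 ± 0.09 and Hsp90aa1 at 0.01 ± 0.10. In its differences this list parted by slide as the members did: 14 of 16 were negative on slide 1 (median -0.11) and 4 of 16 on slide 2 (median 0.07). The slide 2 effect exceeded that of slide 1 for 15 of 16 (49.8% of all features). The sham mean was lower on slide 2 for 14 of 16 (51.9% of all features). A larger slide 2 effect and a lower slide 2 sham mean were thus not limited to the members, nor to this list. Over the 8 related lists together these counts were 88 of 113 and 91 of 113. They were 11 of 16 and 13 of 16 for the kidney markers, but 4 of 9 and 5 of 9 for the stress sensors. The nephrectomized mean was also lower on slide 2 for 12 of 16 heat shock genes and 11 of 16 kidney markers. This held for 3 of 9 members, 48 of the 113 related genes and 50.6% of all features, so these lists matched the members only in part. The median of the heat shock list was 0.07 without sham replicate 1 and 0.0044 without nephrectomized replicate 4. All of the genes named in these lists as brightest had limma adjusted p-values of 0.322 or more.

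**Figure D3:**
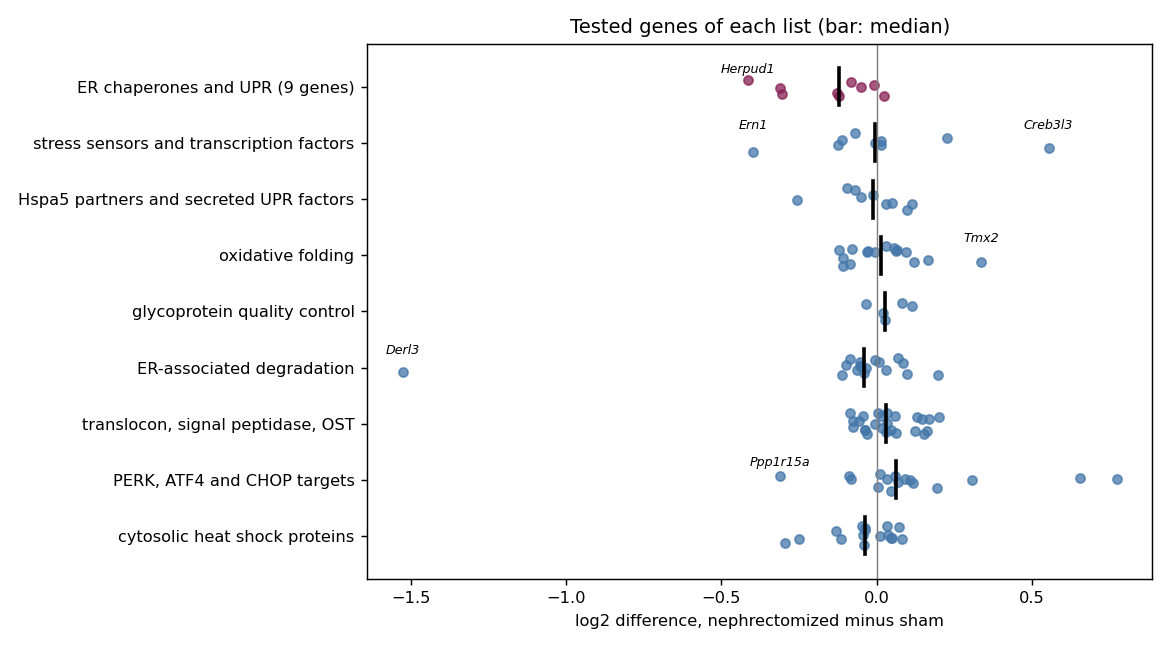
Difference between the groups, nephrectomized minus sham in log2 units, for each tested gene of the members and of the 8 related lists, with a bar at each list's median. The list medians lie between -0.04 and 0.06, and the members' median is -0.12. The point of Derl3, at -1.53, rests on nephrectomized arrays of which 1 was well above background, is -0.43 with normexp background correction and is left out by the filter of all 8 arrays.

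The 9 genes of these lists with an unadjusted p under 0.05 were picked out after their values were seen, and none of them passed the adjusted test in the fit used here. Ern1, the IRE1 sensor whose RNase splices Xbp1 mRNA, had sham levels of 0.50, 0.32, 0.29 and 0.18 and nephrectomized levels of -0.11, -0.06, -0.01 and -0.13. The groups did not overlap, and the slides gave -0.49 and -0.30. Its difference was -0.40 ± 0.08 (SE), with a limma adjusted p of 0.0527, which was under 0.05 in 3 of 20 alternative analyses.

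Derl3, a derlin of the ER membrane that serves ER-associated degradation, had sham levels of -2.30, -2.61, -3.46 and -3.33 and nephrectomized levels of -4.56, -4.25, -4.02 and -4.98. It was well above background on all 4 sham arrays and on 1 nephrectomized array, so it entered the test only through the group where it is high, and its nephrectomized values are mostly not above background. The size of the difference is therefore not settled: it was -1.53 here (limma adjusted p = 0.0552) and -0.43 with normexp background correction. The adjusted p was 0.0302 with trend and robust variance, and the filter of all 8 arrays left the gene out. Its promoter also held the stress element on the opposite strand.
Derl3, chr20:12766601-12766619: CGTGGgacttccttATTGG

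Ppp1r15a (GADD34), which directs the phosphatase that ends the PERK signal, had a difference of -0.31 ± 0.09 (SE; limma adjusted p = 0.137) with no overlap of the groups. Tmx2, a thioredoxin-like membrane protein, had 0.34 ± 0.07 (SE; limma adjusted p = 0.0743, and 0.0369 with trend and robust variance). Creb3l3, an ER-anchored transcription factor, had 0.55 ± 0.18 (SE; limma adjusted p = 0.182). The other 4 serve entry into the ER or glycan transfer: the translocon subunit Sec61g (0.16), the signal peptidase Sec11c (0.13), the translocon-associated Ssr1 (0.20) and Ostc (0.17) of the oligosaccharyl transferase. Among the PERK, ATF4 and CHOP targets, Ddit4, an inhibitor of mTOR signalling, had the highest value of the lists, 0.77 ± 0.55 (SE), with an SE nearly as large as the difference (limma adjusted p = 0.536).

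Across the 8 arrays the mean of the ER-associated degradation genes (r = 0.95) and of the Hspa5 partners (r = 0.88) had the highest correlations with the members' mean. The first of these means includes Derl3, which entered the test only through the sham arrays and had the largest difference of that list (-1.53). The r without Derl3 was not computed, so the rank of the ER-associated degradation list is not settled. The cytosolic heat shock genes correlated at 0.56, the oxidative folding genes at 0.46 and the PERK, ATF4 and CHOP targets at 0.06. These values describe 8 arrays that share 1 scaling, with the high slide 1 sham arrays among them.

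**Figure D4:**
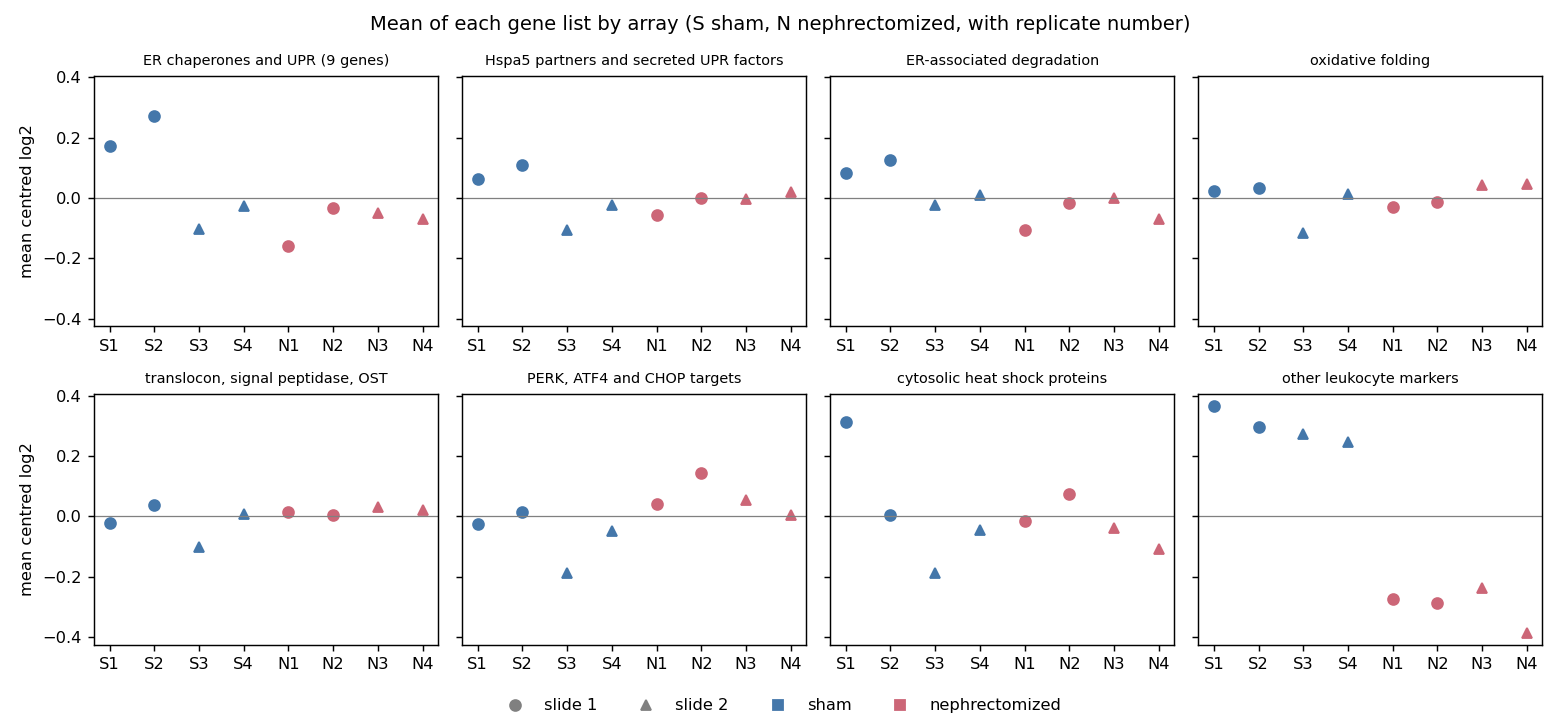
Mean centred log2 level of the members, of 6 related lists and of the leukocyte markers in each array, sham 1 to 4 (S) and nephrectomized 1 to 4 (N), with circles for slide 1 and triangles for slide 2. The members' mean is highest in sham 2 (0.27) and sham 1 (0.17) and lies between -0.16 and -0.03 in the other 6 arrays, while the leukocyte markers separate the groups.

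Markers of other cells were read beside these values, because secretory and immune cells also carry abundant ER. Of 9 markers of leukocytes other than B cells, 7 were tested, all with negative differences (median -0.33). Of these, 3 were called lower after nephrectomy, against 60 of all 20935 features. They were S100a8, by 1.69 (limma adjusted p = 0.0358), S100a9, by 1.40 (limma adjusted p = 0.0187), and Adgre1, by 0.51 (limma adjusted p = 0.0476). The first pair are neutrophil genes and the last is a macrophage gene. The summed signal of the 7 ranged from 22.9 to 25.7 times the 75th percentile in the sham arrays and from 20.8 to 24.7 in the nephrectomized arrays. The mean of the 7 correlated with the members' mean at r = 0.61. Their mean centred level was 0.25 to 0.37 in the sham arrays and -0.39 to -0.24 in the nephrectomized arrays, so that it separated the groups on both slides, unlike the members' mean. That mean includes the large falls of S100a8 and S100a9. The median centred level was 0.01 to 0.31 in the sham arrays and -0.22 to -0.04 in the nephrectomized arrays. Cd3e, of T cells, was above background on 1 array and Itgam on 0 arrays. The part of these leukocytes in the members' differences was not tested.

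Of the B and plasma cell markers 3 of 8 were tested (median 0.22), with summed signals of 4.12 to 5.19 in the sham arrays and 5.03 to 5.70 in the nephrectomized arrays, and a correlation with the members' mean of -0.46. The defining plasma cell genes were near the limit of measurement: Mzb1 was above background on 1 of 8 arrays, Tnfrsf17 on 2, and Irf4 and the B cell gene Cd79b on 0. The adrenal genes Cyp11b1 and Cyp11b2 were above background on 0 arrays. Cyp17a1 and Adipoq, of the same adrenal and fat list, were above background on 4 sham and 4 nephrectomized arrays, and Cidec on 2 and 2. The 3 tested adrenal and fat markers had a median difference of 0.27 and the 3 red cell markers of 0.16, with 0 called. The adrenal and fat median was 0.04 without nephrectomized replicate 2, 0.07 without sham replicate 3, 0.12 without nephrectomized replicate 1 and -0.0023 on slide 2. The red cell median was 0.03 without sham replicate 3, 0.28 without sham replicate 2, 0.11 without sham replicate 4 and -0.10 and 0.45 on slides 1 and 2. The 16 kidney markers had a median of -0.0025, with 0 called. The part of these cells in the members' differences was likewise not tested.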

How the data were processed

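Total RNA was extracted on silica columns, labelled with Cy3 and hybridised to 1-colour Agilent rat arrays, per the labels' protocols. The authors deposited 1 scanner file per array from Feature Extraction 10.5.1.1, whose processed signal is an intensity, background-subtracted but unscaled across arrays, per the file headers. In the deposited series table the values are log2. Set against the scanner values of 30513 probes they had a slope of 1.00, scaled to the 75th percentile and centred per probe. Their medians were -0.015, -0.0023, -0.00099 and -0.0095 in the sham arrays and 0.0012, 0.012, -0.00082 and 0.015 in the nephrectomized arrays. That table served as an alternative.

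Here log2 processed signal minus the array's 75th percentile was used, without the 1639 control spots per array and without outlier spots (90 to 187 per array). Probes were named by RefSeq accession against GRCr8 genes (18713 of 41012 matched). Tests kept the 25250 probes that passed the well-above-background flag on 4 arrays or more, and a gene was represented by its brightest probe. The fit was limma 3.58.1 in R 4.3.3, on all 8 arrays without covariates, with Benjamini-Hochberg adjustment over 20935 features. The number of arrays limits the precision. The script was tested on simulated data. Alternatives were quantile normalization, median scaling, normexp (offset 50) on the median spot signal, other filters and probe rules, another variance model, the replicate block, slide as a fixed term, each slide alone and leaving out each array.

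The members and lists were chosen with earlier results of these data known. Named were all members, the 2 brightest tested genes of each related list without a call, the 5 features most correlated with the members' mean on each measure, and markers, up to 3 called in a list. A feature that this rule names is not reported here. Probes without a RefSeq match were not named.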

Additional observations from a re-analysis of the deposited data

Results flagged for a closer look

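Of 38 groups of 4 values, 2 held a sample far from the others by Dixon's criterion, which chance gives in about 1 in 20 groups. Calr stood at 4.08 in sham replicate 2, above the other sham arrays, and Sdf2l1 stood at 2.10 in nephrectomized replicate 1, below the other nephrectomized arrays.

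For 3 members, at the probe used, both nephrectomized arrays lay below both sham arrays on slide 1 and above them on slide 2. The second probe of Hsp90b1 did not turn, with differences of -0.16 on slide 1 and -0.15 on slide 2. Hspa5 did not turn with normexp background correction. The effect of surgery on slide 2 minus that on slide 1 was 0.42 for Hspa5, 0.43 for Hsp90b1 and 0.64 for Sdf2l1. The interaction test gave limma adjusted p-values of 1.00 for all 3.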

How the results depend on the processing

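The number of members called was 0 in all 21 alternatives. Herpud1, Dnajb9 and Pdia4 kept their direction and their side of the threshold in all 20 alternatives that give a value per gene, with ranges over single arrays left out of -0.51 to -0.32, -0.39 to -0.22 and -0.38 to -0.22. The features called, 217 in all, were 393 with the filter of all 8 arrays, 20 with no filter, 530 with trend and robust variance, 100 with slide as a fixed term and 0 on slide 1 or slide 2 alone (1882 and 1740 at an unadjusted p under 0.05). They were 198 without nephrectomized replicate 1 and 22 to 55 without any one of the other 7 arrays. The members' median was -0.34 on slide 1 and 0.068 on slide 2, and -0.18 to -0.022 with single arrays left out.

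On slide 2, with the scaling used here, the sign turned for Hspa5 (0.090), Hsp90b1 (0.089), Calr (0.068), Sdf2l1 (0.27) and Pdia6 (0.0086). With normexp the difference over all arrays and the slide difference were -0.27 and 0.18 for Hspa5. For Calr they were -0.061 and 0.0094, so that neither gene lay above 0 on slide 2 there. Over the alternatives the slide difference was 0.18 to 0.53 for Hspa5, 0.22 to 0.58 for Hsp90b1 and 0.50 to 0.77 for Sdf2l1. Canx turned with quantile normalization (-0.0018) and on slide 1 (-0.037), and with single arrays left out it ranged from -0.0039 to 0.058, Calr from -0.045 to 0.083 and Sdf2l1 from -0.16 to 0.039. Calr's slide difference ranged from -0.0071 to 0.31, and 0 to 5 features were called for the slide difference, 5 without sham replicate 2 or without nephrectomized replicate 3.

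List medians moved as follows. On slides 1 and 2 they were -0.066 and 0.11 for the sensors, -0.060 and 0.15 for the PERK, ATF4 and CHOP targets and -0.10 and 0.45 for the red cell markers, and on slide 2 they were 0.077 for the Hspa5 partners and 0.10 for oxidative folding. The translocon median was -0.014 with quantile normalization. The leukocyte median was -0.084 with normexp, -0.11 with no filter, -0.24 with the mean of a gene's probes, -0.26 with every probe on its own and -0.40 to -0.23 with single arrays left out. The B cell median was 0.015 with no filter. The cause of these moves was not tested.

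Same-numbered arrays had correlations of 0.14, 0.01, -0.06 and -0.21 in their deviations from the group means. Only for replicate 1 was the same-numbered array the best match in the other group. These few values cannot settle whether the replicate numbers pair the samples. With the replicate block 10 features and 0 members were called. Genes near background, such as Derl3, are limited by signal over background.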

Other observations

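The ER stress response element was also looked for outside the ER lists, after the members' promoters had been read. Its 22 promoters belong to 21 genes, of which 15 were tested and 0 called, with 8 negative differences and a median of -0.0026. Without the members, 5 of 11 were negative. On slide 1, 9 of the 15 were negative, and on slide 2, 3 were. Among them were Dnajc3, a co-chaperone of Hspa5, at -0.10 ± 0.08 (SE), the oxidase Ero1b at -0.12 ± 0.10 and Birc5, a cell division gene, at 1.38 ± 0.26 (limma adjusted p = 0.0519).

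ERSE-II was found in 14 promoters, with 10 genes tested. Of these only Cdc45, a helicase factor of DNA replication, was called, at 0.91 ± 0.15 (SE; limma adjusted p = 0.0387). Hyou1, the nucleotide exchange factor of Hspa5, was at -0.01 ± 0.09 and Ggct, an enzyme of glutathione turnover, at -0.72 ± 0.17 (limma adjusted p = 0.0894). Genes other than the members were picked after their values were seen.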
